A study of Rattus norvegicus with 9 samples.

Results

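Expression of 10 genes of the smooth muscle contractile programme was followed in livers of rats with carbon tetrachloride (CCl4)-induced fibrosis, with and without tormentic acid (TA), a triterpene found in medicinal herbs. The genes were chosen as a known set, with earlier results of these data in view, and taken by symbol from the gene tables, and they are 10 of the 17156 genes listed. They are the smooth muscle actins Acta2 and Actg2, the myosin genes Myh11 and Myl9, the tropomyosin genes Tpm1 and Tpm2, the actin-binding protein genes Tagln, Cnn1 and Lmod1, and the intermediate filament gene Des. All 10 passed the filter on low counts in every comparison.

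Smooth muscle contracts when myosin pulls on actin filaments, which carry tropomyosin, calponin and transgelin, while desmin filaments tie the contractile units together. In the healthy liver many of these proteins belong mainly to the muscle of vessel walls. In the rat, desmin also labels stellate cells, and Tpm1 also has non-muscle forms. During fibrosis, hepatic stellate cells and portal fibroblasts can become myofibroblasts, which lay down collagen and take up part of this contractile programme, and α-smooth muscle actin, the product of Acta2, is their usual marker. Serum response factor and its myocardin family partners bind the CArG box in the promoters of many of these genes.

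RNA was taken from whole livers of 9 male Sprague-Dawley rats, 3 in each group, after a fast of 12 h. The normal control rats were given saline in place of CCl4. The model rats received CCl4 (2 ml/kg of a 50% oil solution, 2 doses a week) for 9 weeks. The TA rats received the same CCl4 and then TA for 6 weeks. According to the paper, livers of all animals were collected once treatment had ended. Its methods do not state what the model rats received during the TA weeks. The labels give no dose for the TA rats, and it is left unstated here. Ages of the rats are not given in the sources used here. Because whole tissue was measured, a change in the number of contractile cells and a change in RNA per cell cannot be told apart.

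Between 13156735 and 18090405 reads were counted per liver, of which the 10 genes together held 1437 to 18387. One liver, model replicate 1, stood apart from the other 8. Its 50 most counted genes took 27.9% of the reads, against 40.4% to 45.7% elsewhere, and its scaling factor by the trimmed mean of M-values (TMM) was 1.69, against 0.82 to 1.16. The summed level of 10 hepatocyte genes was 42343 CPM in this liver and at least 119642 CPM in each other liver, where CPM is a gene's count scaled to the library's depth by TMM and per 1000000 reads. The log2 fold changes of the 10 genes in the comparisons with this group, and the counts and medians of the gene lists that moved with it, are given with and without this liver.

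The annotated promoter of Acta2 is shown because this gene marks the myofibroblast. That of Tpm1 is shown because its change was measured with the smallest error of the 10. That of Actg2 is shown because the groups overlapped for this other smooth muscle actin. Sequences are those of RefSeq on assembly GRCr8, from 250 bases before to 50 after the gene's start, written 5′ to 3′ along the gene. The positions are chr1:241172454-241172753 for Acta2, chr8:76543366-76543665 for Tpm1 and chr4:117593990-117594289 for Actg2, all on the minus strand. Capitals mark CArG-like boxes with at most 1 C or G in the core and the element CATTCC, known as a site of TEAD factors, on either strand.
Acta2: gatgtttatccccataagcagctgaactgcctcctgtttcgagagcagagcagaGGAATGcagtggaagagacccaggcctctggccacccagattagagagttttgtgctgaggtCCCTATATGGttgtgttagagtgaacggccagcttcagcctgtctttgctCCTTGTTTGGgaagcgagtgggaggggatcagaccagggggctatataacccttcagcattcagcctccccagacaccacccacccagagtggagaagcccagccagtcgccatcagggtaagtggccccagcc
Tpm1: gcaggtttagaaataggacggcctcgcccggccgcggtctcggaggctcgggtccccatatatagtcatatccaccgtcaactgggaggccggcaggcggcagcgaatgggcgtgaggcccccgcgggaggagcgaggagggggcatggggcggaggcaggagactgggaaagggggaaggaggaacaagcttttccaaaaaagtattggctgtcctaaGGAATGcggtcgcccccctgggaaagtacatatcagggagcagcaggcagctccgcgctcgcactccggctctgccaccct
Actg2: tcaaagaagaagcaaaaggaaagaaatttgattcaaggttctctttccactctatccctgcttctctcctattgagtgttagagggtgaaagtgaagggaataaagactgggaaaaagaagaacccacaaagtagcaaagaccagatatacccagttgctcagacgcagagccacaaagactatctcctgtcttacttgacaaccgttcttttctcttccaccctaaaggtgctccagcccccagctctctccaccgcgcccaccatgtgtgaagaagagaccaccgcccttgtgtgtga

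Promoters of 6 of the 10 genes were matched in the RefSeq table, those of Acta2, Actg2, Tpm1, Tpm2, Cnn1 and Des. A strict CArG box was found in 0 of these 6 windows and in 1.64% of 33469 rat promoters. The looser form occurred in Acta2 alone among the 6, beginning 134 and 84 bases before the start, and in 9.42% of all promoters. CATTCC, read on both strands and not overlapping these boxes, lay 196 bases before the start of Acta2 and 31 before that of Tpm1, and 14.2% of all promoters held it. TATAAA, read on both strands, was in 0 of the 6 windows and in 14.2% of all promoters. These matches describe the letters only, since binding was not measured here.

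In the normal livers, the levels per length, given as FPKM (fragments per kilobase of exon, scaled to library depth), ran from Tpm1 down through Myl9, Tagln, Acta2 and Tpm2 to Myh11, Des, Actg2, Cnn1 and Lmod1. Tpm1, which encodes a tropomyosin with both muscle and non-muscle forms, was at 17.4 FPKM ± 1.75 (SD, n = 3). Myl9, a regulatory light chain of myosin, was at 13.5 FPKM ± 1.01 (SD, n = 3), Tagln at 8.32 ± 1.94 and Acta2 at 5.15 ± 0.0885. The ranges of these neighbours did not overlap over the 3 livers. Tpm2 followed at 3.89 FPKM ± 1.15 (SD, n = 3), and its highest value of 4.96 FPKM lay just under the lowest Acta2 value of 5.07 FPKM. Further down, each gene overlapped the next, from Myh11 at 1.54 FPKM ± 0.171 (SD, n = 3) and Des at 1.24 ± 0.402 to Actg2 at 0.912 ± 0.256, Cnn1 at 0.460 ± 0.360 and Lmod1 at 0.291 ± 0.137. The first 5 genes kept this order of group medians in the model and TA livers, whereas the median of Des stood above that of Myh11 in both.

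Model VS Normal asked how the programme changed under CCl4. Of the 10 genes, 7 were higher in the model livers at the thresholds of the study's methods, a p below 0.05 before adjustment together with an absolute log2 fold change above 1. These were Acta2, Myl9, Tpm1, Tpm2, Tagln, Lmod1 and Des, and 16.6% of the 12730 genes tested were higher by the same rule. After Benjamini-Hochberg adjustment over all genes tested with edgeR, 4 of 10 (Des, Tagln, Tpm1 and Tpm2) passed 0.05, against 6.86% of all genes. For the same 7 genes every model liver lay above every normal liver, as did 20.8% of all genes. The median log2 fold change was 1.78 over the 10 genes, or 1.05 without model replicate 1, and 0.02 over all genes tested.

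**Figure D1:**
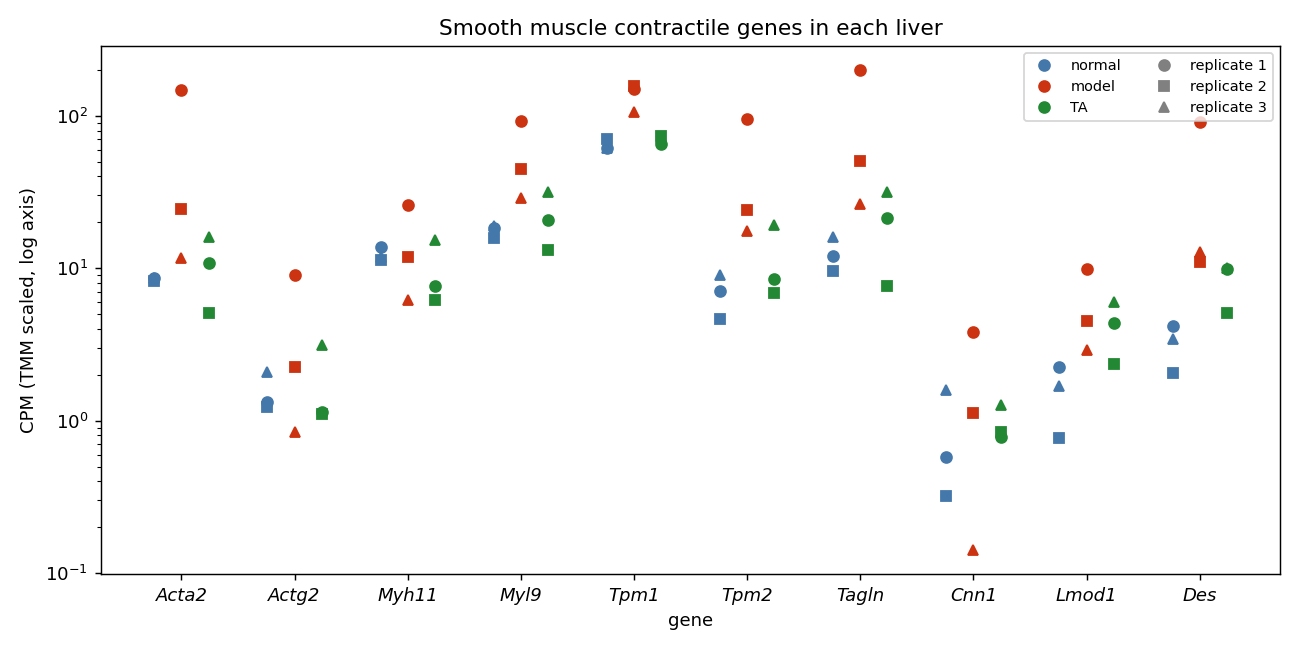
CPM of the 10 genes in each liver on a log axis, with colours for the normal, model and TA groups and symbols for replicates 1 to 3. Model replicate 1 holds the highest value of the 9 livers for 9 of the 10 genes, and the normal livers lie close together for Acta2, Myh11, Myl9 and Tpm1.

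Acta2 had 8.64, 8.30 and 8.65 CPM in the normal livers and 147, 24.4 and 11.6 CPM in the model livers. The normal livers were nearly equal and every model liver lay above them, but the model values spread over a 12.6-fold range. The log2 fold change was 2.84 ± 0.85 (SE, n = 3), with an adjusted p of 0.0777 by edgeR, and the exact permutation test (two-sided) gave p = 0.1, the smallest that 3 rats against 3 allow. Without model replicate 1 the log2 fold change was 1.06 ± 0.33 (SE).

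Actg2, the γ-smooth muscle actin of visceral muscle, had 1.33, 1.22 and 2.10 CPM in the normal livers and 9.02, 2.24 and 0.849 CPM in the model livers. The first model liver lay far above the normal range and the last below it, so the groups overlapped. Its log2 fold change of 1.40 ± 0.81 (SE) had an adjusted p of 0.286 by edgeR and became -0.01 ± 0.60 (SE) without model replicate 1. The coding sequences of the actin genes are nearly alike, and how reads were divided among Acta2, Actg2, Actb and Actg1 is not stated, so that their separate levels are uncertain.

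Myh11, the smooth muscle myosin heavy chain, had 13.8, 11.3 and 11.8 CPM in the normal livers and 25.8, 11.9 and 6.22 CPM in the model livers. The model livers lay above, within and below the normal range. Its log2 fold change was 0.26 ± 0.47 (SE, adjusted p = 0.742 by edgeR) and -0.45 ± 0.33 (SE) without model replicate 1. Myl9, the light chain whose phosphorylation starts contraction, had 18.4, 15.8 and 19.0 CPM in the normal livers and 92.9, 45.0 and 28.8 CPM in the model livers. The groups did not overlap, and the log2 fold change was 1.65 ± 0.41 (SE, adjusted p = 0.0506 by edgeR), or 1.04 ± 0.25 (SE) without model replicate 1.

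Of the tropomyosin genes, Tpm1 had 61.8, 70.4 and 61.5 CPM in the normal livers and 151, 157 and 106 CPM in the model livers. The model livers were higher without overlap, and only for Tpm1 among the 10 genes was the highest of the 9 livers model replicate 2 and not model replicate 1. Tpm1 rose by a log2 fold change of 1.10 ± 0.26 (SE, adjusted p = 0.0447 by edgeR), and the value without model replicate 1 was 1.01 ± 0.25 (SE). Tpm2, the β-tropomyosin of muscle, had 7.14, 4.64 and 9.07 CPM in the normal livers and 95.0, 24.0 and 17.5 CPM in the model livers. Every model liver lay clear of the normal range, and Tpm2 rose by a log2 fold change of 2.72 ± 0.66 (SE, adjusted p = 0.0460 by edgeR), or 1.57 ± 0.32 (SE) without model replicate 1.

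Among the actin-binding proteins, Tagln, which encodes transgelin, had 12.0, 9.53 and 16.0 CPM in the normal livers and 200, 50.5 and 26.2 CPM in the model livers. The groups did not overlap, and Tagln rose by a log2 fold change of 2.89 ± 0.72 (SE, adjusted p = 0.0488 by edgeR), or 1.61 ± 0.33 (SE) without model replicate 1. Cnn1, the calponin of differentiated smooth muscle, had only 2 to 85 reads per liver, with 0.581, 0.322 and 1.59 CPM in the normal livers and 3.81, 1.12 and 0.141 CPM in the model livers. These groups overlapped, and the log2 fold change of 1.07 ± 1.03 (SE) had an adjusted p of 0.515 by edgeR and became -0.36 ± 0.98 (SE) without model replicate 1. Lmod1, leiomodin, which starts new actin filaments in smooth muscle, had 2.24, 0.773 and 1.68 CPM in the normal livers and 9.87, 4.54 and 2.90 CPM in the model livers. Every model liver was above the normal range, with a log2 fold change of 1.90 ± 0.60 (SE, adjusted p = 0.0880 by edgeR), or 1.25 ± 0.54 (SE) without model replicate 1.

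Des, which encodes desmin and in rat liver also labels stellate cells, had 4.15, 2.06 and 3.44 CPM in the normal livers and 91.6, 11.1 and 12.8 CPM in the model livers. The groups did not overlap, and this was the largest change of the 10 genes. Des rose by a log2 fold change of 3.59 ± 0.87 (SE, adjusted p = 0.0462 by edgeR), or 12.1-fold, and by 1.88 ± 0.35 (SE) without model replicate 1.

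The 7 genes past the study's thresholds were the same 7 with model replicate 1 left out. Of the 10, 5 then passed the adjusted threshold, Myl9 in addition to the 4 above, beside 888 of the 12884 genes tested. With any 1 of the 3 normal livers left out, none of the 10 genes passed the adjusted threshold by edgeR, while all 7 stayed past the unadjusted one. Almost no gene of any kind passed the adjusted threshold there, with 51, 0 and 0 of all genes without normal replicates 1, 2 and 3. Without model replicate 2 Tpm1 left the 7, and without model replicate 3 Actg2 joined them. In model replicate 1 all 10 genes were above the normal range. In model replicate 2 it was 8, with the other 2 (Myh11 and Cnn1) within it. In model replicate 3 it was 7, with the other 3 (Actg2, Myh11 and Cnn1) below it. No share of all genes is given for these positions, so the counts only describe the livers. The summed CPM of the 10 genes was 124 to 135 in the normal livers and 825, 332 and 213 in the model livers.

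TA VS Model asked whether TA lowered these genes. In the TA livers 5 of the 10 genes were lower at the unadjusted thresholds, Acta2, Des, Tagln, Tpm2 and Myl9, where 10.2% of the 12781 genes tested were lower by the same rule. By edgeR, 0 of the 10 genes and 0% of all genes passed the adjusted threshold, with 1999 genes at an unadjusted p under 0.05, while DESeq2 passed 520 genes, Tpm1 being the only one of the 10. All TA livers lay below all model livers for 2 of the 10 genes, Tpm1 and Des, against 12.8% of all genes. The median log2 fold change was -1.26 over the 10 genes, or -0.62 without model replicate 1, and 0.00 over all genes tested.

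The TA livers had 10.8, 5.08 and 16.0 CPM of Acta2. The highest of them lay above the lowest model liver of 11.6 CPM, so the groups overlapped, and the log2 fold change was -2.52 ± 0.92 (SE, adjusted p = 0.281 by edgeR). Des was at 9.90, 5.08 and 10.1 CPM, below the lowest model liver of 11.1 CPM, with a log2 fold change of -2.21 ± 0.82 (SE, adjusted p = 0.282 by edgeR). Tagln, at 21.4, 7.61 and 31.4 CPM, overlapped the model livers and had a log2 fold change of -2.20 ± 0.80 (SE, adjusted p = 0.282 by edgeR). In each of these genes TA replicate 2 was the lowest and TA replicate 3 the highest of the TA livers.

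Tpm2 was at 8.54, 6.85 and 19.1 CPM in the TA livers and Myl9 at 20.7, 13.1 and 31.9 CPM. In both, TA replicate 3 exceeded model replicate 3, and the log2 fold changes were -1.99 ± 0.70 (SE, adjusted p = 0.273 by edgeR) and -1.34 ± 0.49 (SE, adjusted p = 0.282). Tpm1 differed in its spread, with 65.1, 73.3 and 71.0 CPM in the TA livers, all below the model livers and close to each other. Its log2 fold change of -0.98 ± 0.27 (SE) fell just short of the fold threshold and had the smallest unadjusted p of the 10 genes, 0.00683, with an adjusted p of 0.252 by edgeR.

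The remaining 4 genes did not pass. The TA livers had 1.14, 1.10 and 3.13 CPM of Actg2, 7.69, 6.17 and 15.3 CPM of Myh11, 0.783, 0.846 and 1.27 CPM of Cnn1 and 4.34, 2.37 and 5.97 CPM of Lmod1. All of them overlapped the model livers, with log2 fold changes between -1.18 (Actg2) and -0.45 (Lmod1).

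Which genes passed the thresholds depended on single livers. Without model replicate 1, 0 of the 10 genes passed the thresholds, and the log2 fold changes were -0.74 ± 0.50 (SE) for Acta2, -0.50 ± 0.35 for Des, -0.91 ± 0.53 for Tagln, -0.83 ± 0.44 for Tpm2 and -0.74 ± 0.38 for Myl9. Tpm1 moved least, to -0.90 ± 0.26 (SE). Without TA replicate 1 again 0 of the 10 passed, without TA replicate 2 only Tpm1 did, and without TA replicate 3 the 3 genes Tagln, Tpm2 and Myl9 did. The log2 fold changes of Acta2, Des, Tagln, Tpm2 and Myl9 moved less there than without model replicate 1. In that order they were -2.52, -2.33, -2.23, -1.80 and -1.29 without TA replicate 1. They were -2.17, -1.94, -1.79, -1.71 and -1.07 without TA replicate 2, and -2.93, -2.35, -2.65, -2.55 and -1.70 without TA replicate 3. For Actg2, Myh11, Cnn1 and Lmod1 the sign turned positive without model replicate 1, at 0.23, 0.12, 0.61 and 0.20.

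**Figure D2:**
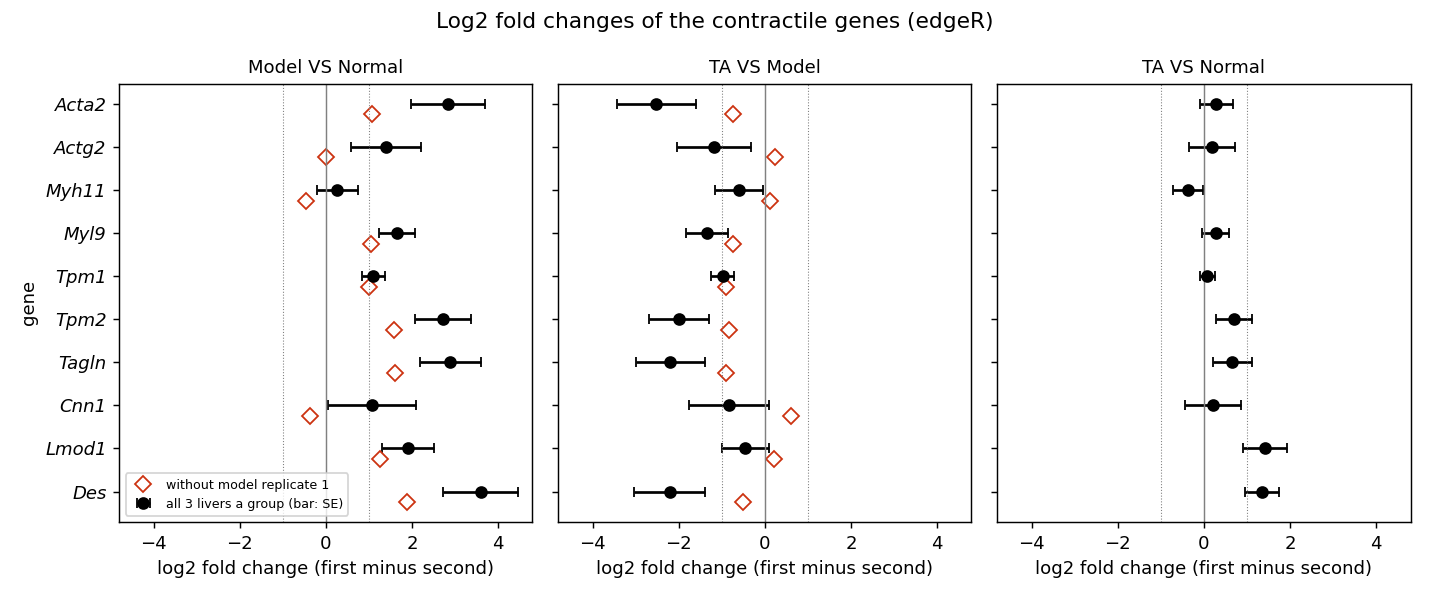
Log2 fold changes of the 10 genes in the 3 comparisons, first group minus second, with bars of 1 SE; open diamonds give the value without model replicate 1 and dotted lines mark a log2 fold change of 1 either way. The Tpm1 value hardly moves when that liver is left out, while Des goes from 3.59 to 1.88 in Model VS Normal, and TA VS Model goes from -2.21 to -0.50.

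TA VS Normal asked which genes still differed from the normal level. Lmod1 and Des, 2 of the 10 genes, were higher in the TA livers at the unadjusted thresholds, against 4.24% of the 12179 genes tested, and the same 2 had every TA liver above every normal liver, against 9.07% of all genes. The log2 fold change was 1.42 ± 0.51 (SE, adjusted p = 0.409 by edgeR) for Lmod1 and 1.35 ± 0.39 (SE, adjusted p = 0.253 by edgeR) for Des. Without the second normal liver, the first TA liver or the third TA liver, Lmod1 no longer passed the thresholds. By edgeR, 0 of the 10 genes passed the adjusted threshold, with 1148 of all genes at an unadjusted p under 0.05 and 0.23% of all genes past the adjusted threshold in this direction, and by DESeq2 also 0 of the 10. When the replicate number was added to the fit as a block, the log2 fold change of Des was 1.34 ± 0.23 (SE). Its adjusted p was then 0.0460 by edgeR, and 1.31% of all genes passed that threshold as higher. Nothing in the sample titles or the paper links rats of the same number, so this block is an assumption.

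The other 8 genes overlapped between the TA and normal livers. Tagln and Tpm2 had log2 fold changes of 0.66 ± 0.46 (SE) and 0.70 ± 0.43 (SE), Acta2, Myl9 and Tpm1 of 0.29, 0.27 and 0.08, and Myh11 was at -0.37 ± 0.35 (SE). Within the TA group the livers differed for these genes, and again no share of all genes is given for the positions. In TA replicate 3, 9 of the 10 genes lay above the normal range and the remaining one, Cnn1, within it. In TA replicate 2, 5 genes lay below the normal range (Acta2, Actg2, Myh11, Myl9 and Tagln), 2 within and 3 above (Tpm1, Lmod1 and Des). TA replicate 1 had 5 above, 3 within and 2 below. The summed CPM of the 10 genes was 150, 122 and 205 in the TA livers, so the second of them was below the lowest normal liver and the third nearly reached the lowest model liver of 213.

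As a description across the groups, the distance of the TA mean from the normal mean was divided by that of the model mean on the log2 CPM scale, where 0 is the normal level and 1 the model level. Over the 7 genes past the thresholds in Model VS Normal the median was 0.207, from 0.0826 for Acta2 and 0.105 for Tpm1 to 0.462 for Des and 0.796 for Lmod1. The 2 genes with the highest values are the ones that still lay above the normal range in every TA liver. The median was 0.164 in TA replicate 1, 0.0135 in TA replicate 2 and 0.572 in TA replicate 3, and 0.316 over the group without model replicate 1. The comparisons share their model or normal livers, so these shares give no separate evidence.

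Ratios of gene pairs within a liver do not depend on how libraries are scaled. Actg2 stood at 0.151, 0.144 and 0.238 of the FPKM of Acta2 in the normal livers, at 0.0602, 0.0900 and 0.0717 in the model livers and at 0.104, 0.212 and 0.191 in the TA livers. All model livers were lower than all normal and all TA livers. Few Actg2 reads lie behind most of these values. They numbered 16, 19 and 25 in the normal, 201, 34 and 12 in the model and 16, 13 and 42 in the TA livers. The closest model and TA livers, model replicate 2 and TA replicate 1, had 34 and 16. The division of reads among the actin genes is also uncertain, as said above. The mean log2 ratio differed by -1.24 in Model VS Normal, and TA VS Model gave 1.15 (exact permutation test, two-sided, p = 0.1 each), and in TA VS Normal by -0.10 with overlap (p = 0.9).

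The myosin heavy chain Myh11 was also low beside Acta2 in the model livers, with FPKM ratios of 0.332, 0.282 and 0.285 in the normal livers, 0.0366, 0.102 and 0.112 in the model livers and 0.149, 0.253 and 0.198 in the TA livers. The 3 groups did not overlap, and the TA livers lay between the other groups. The log2 ratio differed by -2.00 in Model VS Normal, 1.39 in TA VS Model and -0.61 in TA VS Normal (exact permutation test, two-sided, p = 0.1 each). Beside Myh10, a non-muscle myosin heavy chain, Myh11 stood at 3.26, 3.32 and 3.42 in the normal livers, 0.331, 0.410 and 0.400 in the model livers and 0.547, 0.650 and 2.05 in the TA livers. Myh10 was less abundant than Myh11 in every normal liver and more abundant in every model liver. These log2 differences were -3.14, 1.25 and -1.89 in the same order (exact permutation test, two-sided, p = 0.1 each), and both Myh11 ratios were chosen after the data were seen, because the planned partner Myh9, another non-muscle myosin heavy chain, had at most 4 reads in a liver. The annotation used for counting is not clear from the sources used here, its part in this low count was not tested, and the ratio to Myh10 does not stand for non-muscle myosin as a whole.

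The FPKM ratio of Cnn1 to Tagln was 0.0406, 0.0282 and 0.0836 in the normal livers, 0.0160, 0.0185 and 0.00451 in the model livers and 0.0307, 0.0929 and 0.0338 in the TA livers. The model livers were below the others without overlap, with a log2 difference of -2.06 in Model VS Normal, while TA VS Model gave 2.06 (exact permutation test, two-sided, p = 0.1 each). The ratio rests on few Cnn1 reads, with 7, 5 and 19 in the normal, 85, 17 and 2 in the model and 11, 10 and 17 in the TA livers. The lowest ratio is that of model replicate 3, with its 2 reads. The FPKM ratio of Tpm2 to Tpm1 was 0.242, 0.138 and 0.308 in the normal livers and 1.32, 0.319 and 0.346 in the model livers, a log2 difference of 1.27 (exact permutation test, two-sided, p = 0.1). Only model replicate 1 had more Tpm2 than Tpm1.

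Against genes outside the programme, Acta2 stood at 1.99, 3.18 and 4.96 of the FPKM of Col1a1, the α1 chain of type I collagen, in the normal livers. It stood at 0.138, 0.440 and 0.200 in the model livers and 0.256, 0.226 and 0.802 in the TA livers. Both CCl4 groups were below the normal livers without overlap, by -3.78 and -3.13 on the log2 scale (exact permutation test, two-sided, p = 0.1 each), and they overlapped each other. The ratio of Acta2 to the cytoplasmic actin Actb overlapped in every comparison, from 0.00793 to 0.0738 over the 9 livers. Des to the mesenchymal filament gene Vim was 0.0572, 0.0522 and 0.0879 in the normal livers, 0.0523, 0.0410 and 0.0803 in the model livers and 0.0920, 0.0895 and 0.101 in the TA livers, where it was higher than in all others, by 0.76 against the model and 0.55 against the normal livers on the log2 scale (exact permutation test, two-sided, p = 0.1 each). Of 24 such exact permutation tests, 15 showed no overlap. These include every test of both Myh11 ratios, which were chosen after the data were seen, and the comparisons share livers. After Benjamini-Hochberg adjustment over the 24 the smallest adjusted p was 0.16, the lowest this design gave.

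**Figure D3:**
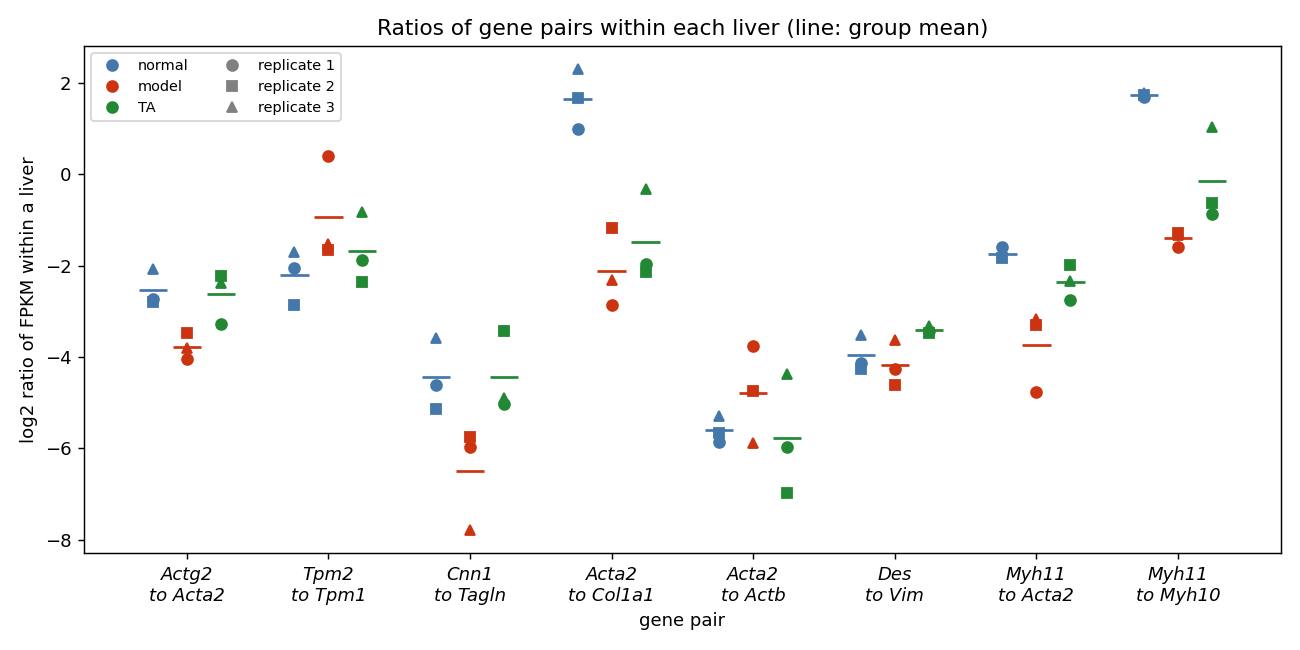
Log2 ratio of the FPKM of gene pairs within each liver, with colours for groups, symbols for replicates and a line at the group mean. The model livers lie below the normal livers without overlap for Actg2 to Acta2, Cnn1 to Tagln, Acta2 to Col1a1 and both Myh11 ratios, and above them for Tpm2 to Tpm1.

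The make-up of the summed FPKM of the 10 genes differed between livers. Myh11 held 2.59% to 3.28% of it in the normal livers, 0.744% to 1.02% in the model livers and 1.47% to 2.03% in the TA livers, so that the 3 groups did not overlap. Des held 1.65% to 3.04%, 2.90% to 8.13% and 4.12% to 5.82% in the same order, and here only the TA and normal livers did not overlap. Tpm1 held 9.34% in model replicate 1 and 20.3% to 42.9% in the other livers, and Tagln and Acta2 held 30.8% and 20.4% in model replicate 1. In model replicates 2 and 3, Tagln held 23.0% and 19.1% and Acta2 9.99% and 7.63%, of which the first lay within and the second below the 9.11% to 10.4% of the normal livers.

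**Figure D4:**
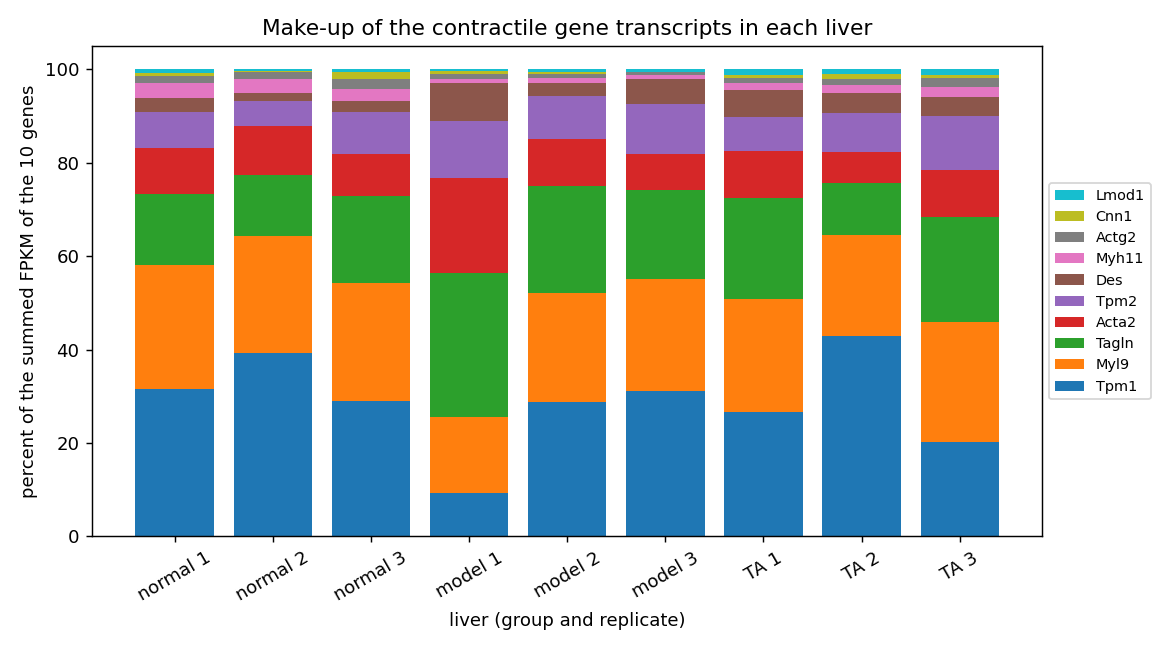
Stacked bars with the percent of the summed FPKM of the 10 genes that each gene holds, for each of the 9 livers. Tpm1, Myl9 and Tagln make up most of each bar, and model replicate 1 has the smallest share of Tpm1 (9.34%) and the largest of Tagln (30.8%) and Acta2 (20.4%).

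Further genes of the contractile apparatus and its surroundings were taken from fixed lists. By the unadjusted thresholds used for them, 16.6% of all genes tested were higher and 5.55% lower in Model VS Normal, and 10.2% were lower and 2.11% higher in TA VS Model. These shares were 12.2% higher in Model VS Normal and 4.96% lower in TA VS Model without model replicate 1. Of 20 other genes of the apparatus, 9 were higher and 0 lower in Model VS Normal at the unadjusted thresholds, with a median log2 fold change of 0.75, and 4 were lower and 0 higher in TA VS Model, with a median of -0.64. The largest changes in Model VS Normal were those of Itga8, an integrin of stellate cells and smooth muscle (4.74 ± 0.41 SE), Pdlim3, a Z-line protein (2.99 ± 0.74), Fhl1, a LIM protein of muscle (2.78 ± 0.54), and Flna, filamin A (2.24 ± 0.55). Their adjusted p by edgeR was 0.00742, 0.0490, 0.0287 and 0.0468. In TA VS Model the log2 fold change of Itga8 was -1.66 ± 0.36 (SE, adjusted p = 0.230), and in TA VS Normal it was still 3.05 ± 0.34 (SE, adjusted p = 0.0167 by edgeR). Without model replicate 1 the counts were 5 higher in Model VS Normal, with 1 lower in TA VS Model (median -0.32), and the Model VS Normal value of Flna was 1.29.

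Of 12 regulators of the programme, 9 could be tested, since Mrtfb and Prkg1 had no value under the symbols searched and Myocd, the myocardin gene, had at most 8 reads in a liver. In Model VS Normal 2 of the 9 were higher and 0 lower, Fhl2, a LIM cofactor of serum response factor (3.65 ± 0.28 SE, adjusted p = 0.00742 by edgeR), and Klf4, a factor that opposes the muscle state (1.40 ± 0.44 SE, adjusted p = 0.0886 by edgeR). The median was 0.52. Srf, which encodes serum response factor, had 0.52 ± 0.22 (SE, adjusted p = 0.175 by edgeR), so its own transcript did not pass. In TA VS Model 1 of the 9 was lower and 0 higher, Fhl2 at -1.31 ± 0.27 (SE, adjusted p = 0.230 by edgeR), with a median of -0.39, and in TA VS Normal Fhl2 was 2.30 ± 0.32 higher (SE, adjusted p = 0.0296 by edgeR). Both counts are near the shares of all genes, 16.6% and 10.2%. Without model replicate 1 Fhl2 was the 1 regulator past the thresholds in both comparisons, and the TA VS Model median was -0.19.

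Of 16 non-muscle relatives of these genes, 14 could be tested, and 9 were higher and 0 lower in Model VS Normal, with a median of 1.31. These included Vim (3.86 ± 0.94 SE), the non-muscle myosin Myh10 (3.48 ± 0.58), the tropomyosin Tpm4 (2.79 ± 0.75) and the transgelin relative Tagln2 (2.53 ± 0.56), with adjusted p of 0.0468, 0.0184, 0.0592 and 0.0381 by edgeR. Actb and Actg1, the cytoplasmic actins, had 1.40 ± 0.55 (SE) and 1.79 ± 0.61 (SE). TA VS Model had 5 lower and 0 higher, with a median of -0.96. Leaving out model replicate 1 gave 4 higher in Model VS Normal (median 0.69) and 3 lower in TA VS Model (median -0.38). The Model VS Normal values were then 2.08 for Vim, 2.58 for Myh10, 1.28 for Tpm4, 1.78 for Tagln2, 0.65 for Actb and 0.78 for Actg1. Apart from the ratios of single gene pairs given above, muscle and non-muscle forms were not tested against each other.

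**Figure D5:**
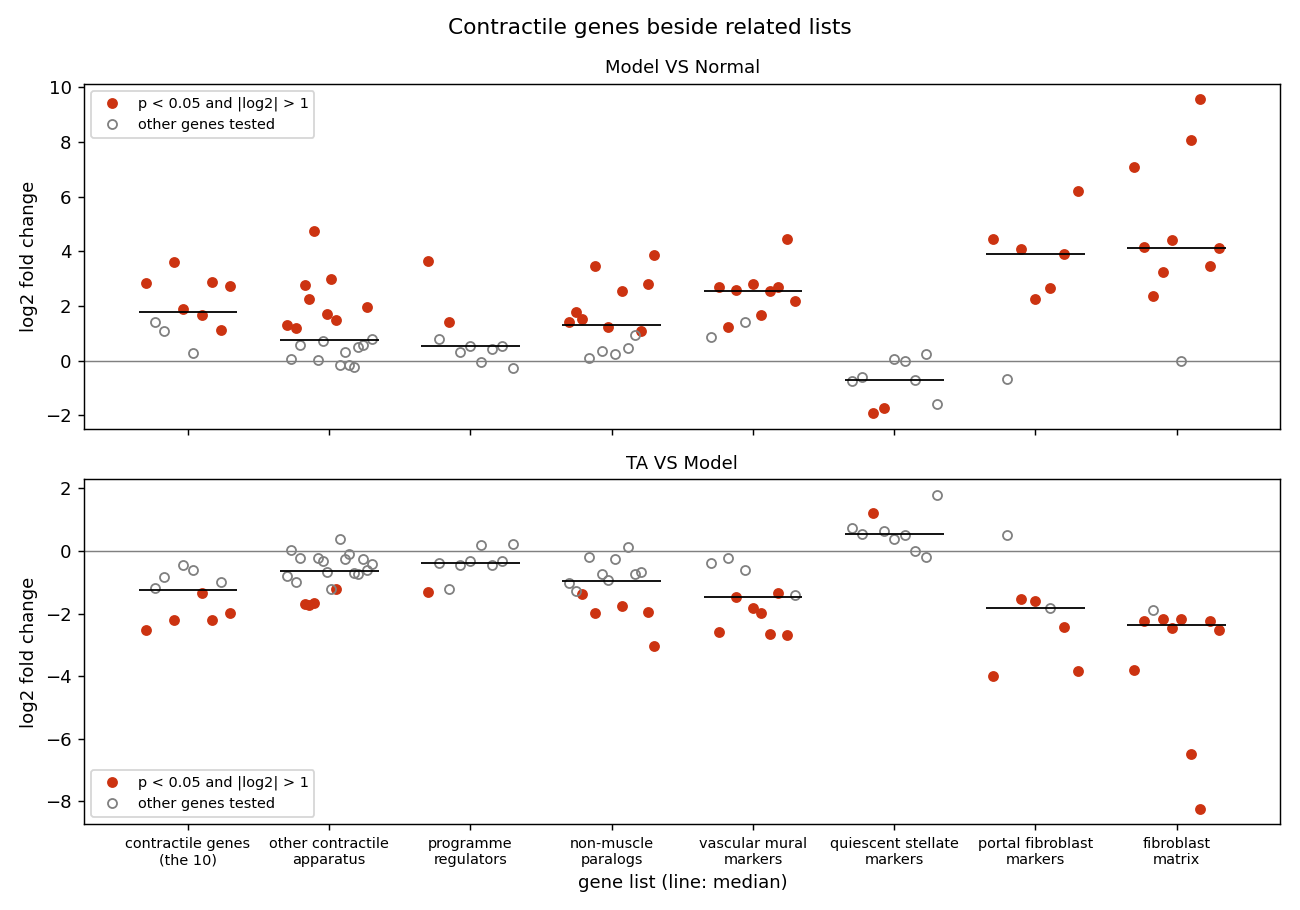
Log2 fold changes of the 10 contractile genes and of 7 related lists in Model VS Normal (top) and TA VS Model (bottom), with filled points for genes past the unadjusted thresholds and a line at the median. The medians in the top panel run from -0.70 for quiescent stellate markers to 4.14 for fibroblast matrix genes, with 1.78 for the 10 contractile genes.

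Markers of cells that could carry or accompany the contractile genes moved too, and their part in the result was not tested. Of 11 tested markers of vessel mural cells, 9 were higher and 0 lower in Model VS Normal (median 2.56), with Rgs4, a G protein regulator, at 4.44 ± 1.02 (SE, adjusted p = 0.0415 by edgeR). Their summed level was 59.8 to 88.3 CPM in the normal, 166 to 584 CPM in the model and 129 to 157 CPM in the TA livers. Without model replicate 1, 4 were higher (median 1.52), and in TA VS Model 7 were lower and 0 higher (median -1.46), or 2 lower without that liver (median -0.60). Of 10 fibroblast matrix genes 9 were higher and 0 lower (median 4.14), led by Postn, Lum, Col1a1 and Col6a3 at 9.56, 8.09, 7.08 and 4.42, and their sum was 282 to 503, 1564 to 15437 and 763 to 1437 CPM. The highest matrix sum was again that of model replicate 1, without which 8 were higher (median 2.51) and the values of Postn, Lum, Col1a1 and Col6a3 were 4.78, 2.58, 4.27 and 2.79. Of the 10, 9 were lower in TA VS Model (median -2.36), or 3 without that liver (median -0.92), and in TA VS Normal 6 of 8 were higher and 1 lower (median 1.37), against 4.24% of all genes higher. Of 7 portal fibroblast markers 6 were higher and 0 lower (median 3.91), led by Thy1, a surface marker of portal fibroblasts, at 6.19 ± 1.10 (SE), and 5 were higher without model replicate 1 (median 2.47). Of these 7, 5 were lower and 0 higher in TA VS Model (median -1.83), or 2 without that liver (median -0.88).

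Of 9 tested markers of quiescent stellate cells, 0 were higher and 2 lower in Model VS Normal (median -0.70), Ecm1 at -1.91 ± 0.41 (SE, adjusted p = 0.0337 by edgeR) and Gfap at -1.73 ± 0.58 (SE, adjusted p = 0.101). Of the 9, 1 (Ecm1) was higher and 0 lower in TA VS Model (median 0.55), and 0 were higher without model replicate 1. Without that liver 3 were lower in Model VS Normal (median -0.65). Lrat, which stores retinol as its ester in these cells, had -0.02 ± 0.64 (SE). The summed level of the 10 markers in the tables was 539 to 677 CPM in the normal, 244 to 362 CPM in the model and 375 to 565 CPM in the TA livers, so that the model livers lay below both other groups.

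Genes of striated muscle had a summed level of 3.61 to 4.62 CPM in the normal livers, over the 9 genes with values. The sum was at most 13.2 CPM in the model livers and 5.58 to 17.4 CPM in the TA livers. Every model and TA liver lay above every normal liver. Acta1, Myl1 and Myh2 were at 0 in all 3 normal livers. Of the 3 that could be tested, 1 was higher in Model VS Normal, Neb at 3.62, and 2 of 4 were higher without model replicate 1. Mesothelium, which covers the liver, had 0.839 to 2.49 CPM over its 6 markers in the normal livers, with Upk1b, Lrrn4 and Muc16 at 0 in all 3. It had 25.6 to 84.2 CPM in the model and 4.65 to 14.7 CPM in the TA livers, and both testable markers, Msln and Wt1, were higher in Model VS Normal at 5.08 and 3.93. All 5 cholangiocyte markers were higher in Model VS Normal (median 3.23), as were 4 of 6 macrophage markers (median 1.24) and 2 of 5 endothelial markers with 1 lower (median 0.01), while 0 of 10 hepatocyte genes passed in either direction (median -0.72). With model replicate 1 left out, the counts were 5 of 5 cholangiocyte markers (median 3.08), 1 of 6 macrophage markers (median 0.48) and 1 of 5 endothelial markers with 0 lower (median -0.26), and 1 of 10 hepatocyte genes was lower (median -0.33).

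Among 9681 other genes whose log2 CPM averaged 2 or more, the 8 whose log2 CPM over the 9 livers was most like the mean of the 10 contractile genes were Nenf, Renbp, Mfsd10, Ssbp4, Fam171a2, Ybx3, Selenom and Rgl1. Pearson's r ran from 0.975 to 0.983, as a description over livers that share the group differences and the deviation of model replicate 1.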

How the data were processed

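The authors trimmed the reads of 9 poly(A) liver libraries, mapped them with STAR and counted them with HTSeq-count. The paper names a human genome and the labels a mouse build, while the deposited symbols are rat symbols, and the strand setting is not given in the sources used here. Raw read counts per gene, without normalization, were deposited by the authors and carry every test here. The deposited signal of each library, counts over its DESeq2 size factor, was not tested. FPKM values deposited by the authors were used for levels per length and for ratios within a liver, since the normal and TA libraries stand in separate tables. The authors' own fold changes and p-values were not used.

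Counts were tested with edgeR 4.0.16 in R 4.3.3 by its quasi-likelihood test, with TMM scaling, its filter on low counts and the libraries of the compared groups alone, and adjusted by Benjamini-Hochberg over all genes tested. The test was checked on simulated data. Standard errors are the log2 fold change over the square root of F. Single genes and ratios were compared by the exact permutation test, two-sided, over 20 arrangements. CPM values are on the TMM scale. DESeq2 1.42.0, limma 3.58.1, other scalings and filters, all 9 libraries in 1 fit, the replicate block and each library left out were alternatives. In TA VS Normal, residuals of rats with the same number, after subtraction of the group mean, had r of 0.233, 0.370 and 0.452. On that ground the number, which comes from the labels, was used as a block there. The blocked fit is given where it changes a call. Nothing in the sample titles or the paper links rats of the same number across groups, so the block is an assumption taken from these same data. Replicates are separate livers, and their counts differed by more than sampling noise.

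The members and lists were chosen with earlier results of these data known. Genes named were the 10 members, up to 4 genes of each list with the largest change past the unadjusted thresholds (or up to 2 with the smallest p), genes used in ratios and the 8 most like the members. Srf, Lrat, Myocd and the markers at 0 or testable in small number were named after their values were seen. Depth limits Cnn1, Actg2 and Lmod1 most.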

Additional observations from a re-analysis of the deposited data

How the results depend on the processing

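Of 449 checks of single log2 fold changes of the 10 genes under another setting, 405 kept the direction and the side of the thresholds, 26 lost the call, 6 gained it and 12 changed sign. In Model VS Normal the 4 genes past the adjusted threshold became 7 with DESeq2, 0 with limma voom, 7 with library totals alone and 0 to 7 with 1 liver left out. In TA VS Model the 5 genes past the unadjusted thresholds became 2 with limma voom and 0 to 6 with 1 liver left out, and the 0 past the adjusted threshold became 1 with DESeq2. In TA VS Normal the 2 genes past the unadjusted thresholds became 1 with all 9 libraries in 1 fit and 1 to 3 with 1 liver left out. With the replicate block, 1 gene (Des) passed the adjusted threshold in TA VS Normal against 0 without it. In the other comparisons the number was not taken to pair the samples. Same-numbered correlations ran from -0.05 to 0.21 in Model VS Normal and from -0.04 to 0.21 in TA VS Model. Under the block the adjusted threshold was passed by 3 genes (Des, Myl9 and Tpm2) in Model VS Normal, and the unadjusted ones by 5 in TA VS Model. With 1 liver left out, the log2 fold change in Model VS Normal ran from -0.0081 to 1.86 for Actg2, -0.45 to 0.61 for Myh11 and -0.36 to 1.90 for Cnn1. In TA VS Model the range was -1.84 to 0.23 for Actg2, -1.07 to 0.12 for Myh11, -1.34 to 0.61 for Cnn1 and -0.77 to 0.20 for Lmod1. In TA VS Normal the range was -0.13 to 0.62 for Acta2, -0.48 to 0.45 for Actg2, -0.093 to 0.53 for Myl9 and -0.20 to 1.07 for Cnn1. Over all genes, 1002 past the adjusted threshold in Model VS Normal became 2714 with DESeq2, 387 with limma voom, 1980 with library totals alone, 1757 with all 9 libraries and 0 to 2537 with 1 liver left out. The 32 of TA VS Normal became 332 with DESeq2, 56 with library totals alone, 76 without a filter, 14 with all 9 libraries, 203 with the block and 1 to 61 with 1 liver left out. In TA VS Model, 1571 genes past the unadjusted thresholds became 2447 with library totals alone and 792 to 2792 with 1 liver left out. Library totals alone moved the median log2 fold change of all genes from 0.02 to 0.65 in Model VS Normal, from 0.00 to -0.48 in TA VS Model and from -0.01 to 0.18 in TA VS Normal. With that scaling, 3738 genes were higher and 221 lower at the unadjusted thresholds in Model VS Normal, against 2112 and 706 with TMM, and 89 higher and 2358 lower in TA VS Model, against 270 and 1301. The causes were not tested. The ratio of Myh11 to Myh9 was not run, since Myh9 was at 0 in a liver. With 3 rats a group no exact test could go below 0.1.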
